A study of Homo sapiens with 15 samples.

Results

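The WI-38 line of human fetal lung fibroblasts divides a limited number of times in culture, and the cells described here were treated late in that span with GW8510, a kinase inhibitor. All 1845 genes of the authors' deposited table for GW8510 against the PD45 control are covered, out of 4872 genes that the 4 deposited tables of the series hold together. Both groups consist of 3 RNA sequencing libraries of cells at PD45, which the labels explain as 45 generations and describe as senescent. Both received lipo3000, a lipofection reagent, with NC, read as a negative-control siRNA. The control was given DMSO, the usual solvent of such compounds, while the label of the treated cells names GW8510 and no DMSO, so the compound and the absence of DMSO cannot be told apart. No dose or duration of treatment is in the labels. A group of 3 PD30 control libraries (30 generations, DMSO and lipo3000, no NC) is used only for levels set side by side. All libraries come from 1 line, and the labels do not tie them to separate cultures. The p-values below therefore weigh differences against a spread between libraries that may be technical.

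Fibroblasts that have used up their divisions enter senescence, in which the p53 and retinoblastoma proteins hold E2F and MYB factors in check and the genes for DNA replication and mitosis fall silent. Such cells stay metabolically active and secrete cytokines, growth factors and matrix proteases, a set known as the senescence-associated secretory phenotype (SASP). Cyclin-dependent kinases (CDKs) lie on both sides of this state: some drive replication and mitosis, and others, such as CDK9 and the Mediator kinases, act on RNA polymerase II. GW8510 itself is best known for inhibiting CDKs. The stated interest of the series lies in the response of senescent cells to this compound and to knockdown of the tyrosine kinase gene SRC.

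Expression is given as the deposited signal, a normalised value per gene and library whose unit is not named, so read depth is unknown and signals are compared between groups but not between genes. Group values are mean ± SD (n = 3) and ratios are ratios of group means. The table holds only genes past the authors' adjusted p of 0.05 and fold of 1.5. About 15574 genes were tested, a number inferred from the deposited p-values, so 11.8% were listed, 4.59% as higher and 7.26% as lower with GW8510. A gene that is not in the table is not shown to be unchanged. Because the list was drawn from this same contrast, the values below describe the listed genes and are no independent support for the call. Rise and fall are used of genes that also passed a re-test of the deposited signals with limma (adjusted p under 0.05), which took in 1625 genes, those whose signal averaged 1 or more. In bulk RNA, fewer cells of a type and less RNA per cell cannot be told apart.

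More listed genes were lower than higher with GW8510, and by deposited signal the reductions were larger. By mean signal 716 genes (38.8%) were higher and 1129 (61.2%) lower. The median ratio was 1.6 among the higher genes and 1.85, control over GW8510, among the lower ones. A ratio of at least 2 was reached by 156 of the higher genes (21.8%) and by 410 of the lower (36.3%), and one of at least 4 by 19 and 65. The 3 GW8510 libraries lay all above or all below the 3 control libraries in 1671 genes, which is 90.6% of the table, with 34.9% of the table separated upward and 55.7% downward. The limma re-test passed 1551 of 1625 genes (95.4%), 616 upward (37.9%) and 935 downward (57.5%), each in the direction the authors gave. The authors' deposited table counts 715 genes higher and 1130 lower. Its log2 fold changes lie above the log2 ratios of the deposited signals by a median of 0.12. That offset makes rises larger and reductions smaller on the authors' scale. The larger reductions are therefore shown for the deposited signals alone. In 5 genes, CGN, DGKI, DNAH1, ARMCX4 and SCHIP1, named after their values were seen, the signal ratio and the authors' fold have opposite signs.

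**Figure D1:**
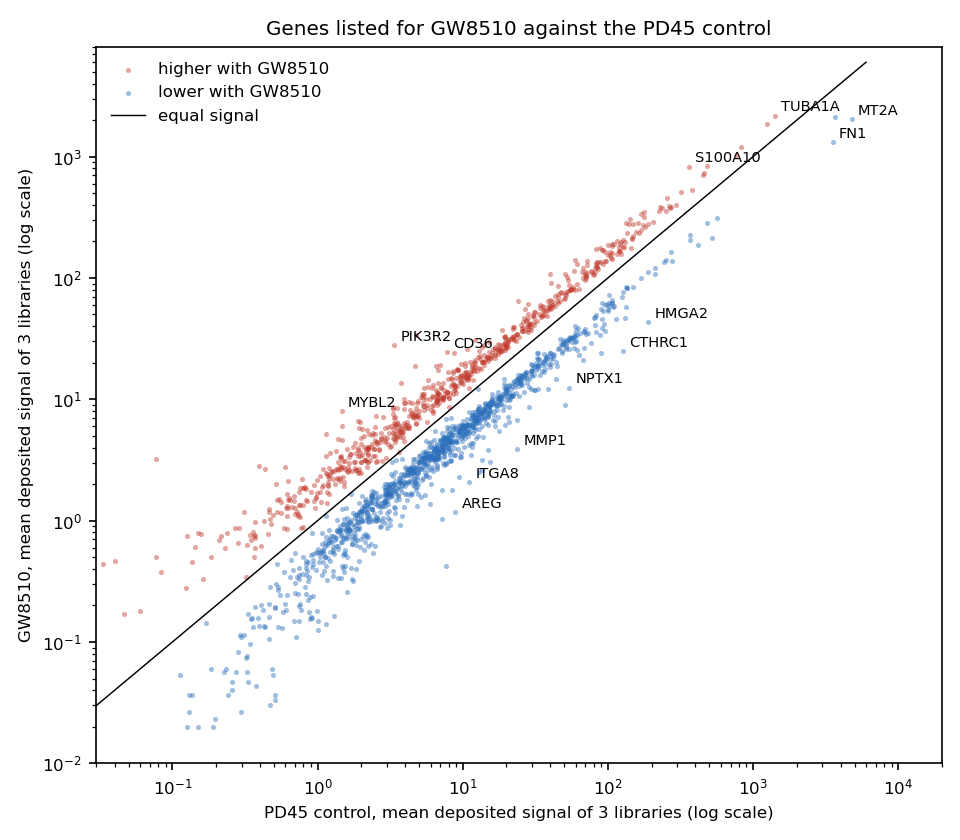
Mean deposited signal with GW8510 (vertical, log scale) against the PD45 control (horizontal, log scale) for the listed genes, each mean over 3 libraries; genes above the line of equal signal were higher with GW8510. Few genes lie close to the line, since the table holds genes past the authors' fold threshold, and MYBL2 and PIK3R2 above it and CTHRC1, HMGA2 and MMP1 below it are among the genes farthest from it.

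At the edge of the table, ANO8 and LACC1 stood just inside the authors' fold threshold, with log2 fold changes of 0.59 and -0.59 in the authors' deposited table and log2 signal ratios of 0.46 and -0.83. HES7 was closest to the significance threshold, with an adjusted p of 0.0494 in the authors' deposited table. Genes just outside either threshold were not analysed here. Within a group, the libraries correlated across listed genes with r from 0.985 to 0.990 on the log2 scale, and between groups with r from 0.901 to 0.930. Control 3 was the control library nearest to the GW8510 mean in 52.6% of genes, against 25.4% for control 1 and 22% for control 2. Of the treated libraries, GW8510 1 was nearest to the control mean in 40.1% of genes.

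Most marker genes of other cell types were not in the table. No member of an 8-gene endothelial list was listed. The epithelial list of 10 had KRT19 alone, a keratin of simple epithelia, at 249, 251 and 204 with GW8510 and 123, 148 and 134 in the control. The blood list of 9 had CD68 alone, a lysosomal protein of macrophages and of other cells rich in lysosomes, which fell from 48.0 ± 5.81 to 28.1 ± 2.84. From the 12 fibroblast markers the table holds COL3A1, which rose 1.76-fold, and FN1 and FAP, which fell 2.66-fold and 1.99-fold. Of 8 neural markers TUBB3 and MAP2, both proteins of microtubules, were listed, and they rose from 253 to 453 and from 1.09 to 2.67. The part of other cell types in the results was not tested.

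Direction went with the build of the gene. Among listed protein-coding genes matched to the GENCODE release 29 annotation, the higher genes spanned a median of 19.9 kb from first to last exon and the lower genes 80.7 kb. The median GC content of their transcripts was 55.9% and 41.5%. Split into 5 equal classes by span, 63.9% of the shortest genes were higher with GW8510, then 58.7%, 33.7%, 18.5% and, of the longest, 10.0%. Over 5 classes of GC content the share climbed from 4.85% through 11.9%, 35.0% and 57.4% to 76.0%. Each property still separated the directions within classes of the other. With the genes split at the median span and into 3 classes of GC content, 53% of the shorter genes of the middle class were higher, against 23.4% of the longer ones. In the GC-rich class the shares were 75.5% and 45.3%, and in the GC-poor class 9.43% and 4.62%. Long noncoding RNAs made up 9.64% of the higher genes and 5.93% of the lower ones. Because span, GC content and direction move together across the table, the span or GC content is given with several groups below, but not with all. The part of span and GC content in each result was not tested.

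**Figure D2:**
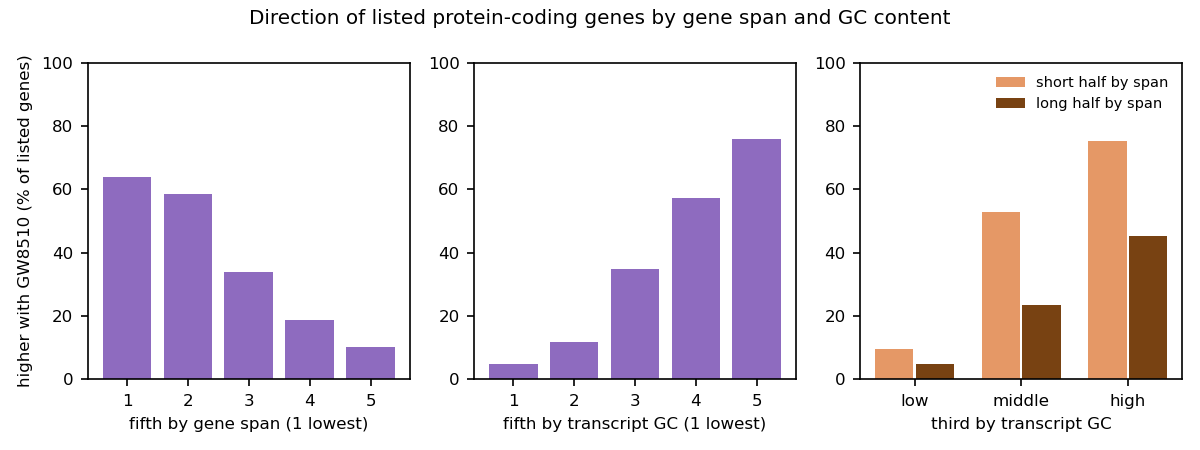
Share of listed protein-coding genes that were higher with GW8510 (percent, from 0), by 5 equal classes of gene span (left), by 5 equal classes of transcript GC content (middle), and by 3 classes of GC content with genes below and above the median span apart (right). The share falls from 63.9% to 10.0% with span, climbs from 4.85% to 76.0% with GC content, and is lower for long genes within each of the 3 GC classes.

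Genes of mitosis were mostly listed as higher. Of 111 genes in the mitosis lists 43 were in the table, 37 higher and 6 lower with GW8510, where 38.8% of all listed genes were higher. Their median log2 ratio was 0.78, against -0.72 over all listed genes. The groups did not overlap in 38 of the 43, beside 90.6% of the whole table. In the re-test 30 rose, 6 fell, 2 did not pass and 5 were below the signal minimum. The listed mitosis genes had a median span of 23.4 kb, with a median transcript GC content of 44.6% for the kinetochore list and 51.2% for the spindle list. The other 68 genes were not in the table.

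Among its transcription factors, 3 rose and 1 fell. MYBL2, the B-MYB protein that switches on late cell-cycle genes, read 8.35, 6.48 and 9.25 with GW8510 and 1.29, 1.61 and 1.5 in the control. Every treated library lay well above every control library, and the gene rose 5.47-fold (limma log2 difference 1.86, SE 0.15, adjusted p 1.4e-05). FOXM1, the forkhead factor that acts with B-MYB on mitotic promoters, read 6.98, 6.84 and 8.73 against 3.75, 3.36 and 2.87. It rose 2.26-fold without overlap (log2 difference 0.98, SE 0.15, limma adjusted p 0.00024). E2F1, an activator of replication genes, rose to 4.91 from 2.87. E2F7, a repressor of the same family, went the other way and fell to 1.56 from 3.06.

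Genes of the mitotic apparatus were listed from the kinetochore to cytokinesis. Centromere and kinetochore genes numbered 10 of 36, 8 higher and 2 lower. CENPM, a subunit of the inner centromere network, rose from 2.02 ± 0.517 to 5.74 ± 0.944. ZWINT, a kinetochore protein that binds the spindle checkpoint, rose from 6.19 ± 0.864 to 10.5 ± 1.67. Among 65 spindle, condensin and cytokinesis genes 29 were listed, 26 higher and 3 lower, and 21 of them rose and 3 fell. BIRC5, the survivin subunit of the chromosomal passenger complex, read 8.61, 6.28 and 7.10 against 2.46, 2.40 and 2.78, a 2.88-fold rise with no overlap. CDC20, the activator of the anaphase-promoting complex, read 11.47, 7.11 and 9.48 against 4.07, 4.07 and 3.87, a 2.34-fold rise (limma adjusted p 0.00033). UBE2S and UBE2C, the ubiquitin-conjugating enzymes that work with that complex, rose 1.80-fold and 1.87-fold. TACC3, a spindle protein, and CDCA5, which protects sister cohesion, rose 1.97-fold and 2.18-fold.

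The 6 reductions included E2F7 and genes of chromosome structure and the spindle. SMC2 and SMC4, the ATPase pair at the core of condensin, fell from 2.56 to 1.37 and from 4.82 to 2.19. CKAP2, a spindle microtubule protein, fell from 8.29 to 5.42, and the kinetochore gene MIS12 from 4.31 to 2.64. CENPA, the histone of the centromere, rose from 1.91 to 3.39. The proliferation marker MKI67 did not pass, with overlapping groups at a mean of 1.57 and 0.98, nor did the mitotic kinase gene AURKB, at 4.88 and 3.87.

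The promoters of mitotic genes commonly carry CCAAT boxes, bound by NF-Y, and a cell-cycle homology region, bound by the complex of B-MYB, FOXM1 and MuvB. Both were searched in the 250 bases before the start site, in RefSeq sequence of GRCh38.p14, as the letters CCAAT and TTTGAA on either strand. CCAAT was present in 32.9% of 27305 promoters, and in 25 of the 30 higher mitosis genes that had a promoter there (83.3%). TTTGAA was present in 13.7% of all promoters and in 11 of those 30 (36.7%). Mitosis genes that were not in the GW8510 table held them in 33 of 56 (58.9%) and 23 of 56 (41.1%). Over all higher listed genes CCAAT stood in 42.1% and TTTGAA in 10.8%, and over the lower ones in 31% and 11.5%. A match of these letters is a description and not a bound site. Of the 11 higher mitosis genes with both, the 4 with the largest ratios among those with a mean of at least 5 are printed 5′ to 3′ on the gene's strand, to show how close the letters lie to the start site. Capitals mark CCAAT (or ATTGG) and TTTGAA (or TTCAAA), and the start site follows the last base.
CDC20, chr1:43358731-43358980, plus strand: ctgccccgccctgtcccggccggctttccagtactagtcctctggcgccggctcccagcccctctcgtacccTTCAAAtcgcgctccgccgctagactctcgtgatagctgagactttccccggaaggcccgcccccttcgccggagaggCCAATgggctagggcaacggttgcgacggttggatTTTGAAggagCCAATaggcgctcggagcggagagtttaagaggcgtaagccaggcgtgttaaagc
ZWINT, chr10:56361260-56361509, minus strand: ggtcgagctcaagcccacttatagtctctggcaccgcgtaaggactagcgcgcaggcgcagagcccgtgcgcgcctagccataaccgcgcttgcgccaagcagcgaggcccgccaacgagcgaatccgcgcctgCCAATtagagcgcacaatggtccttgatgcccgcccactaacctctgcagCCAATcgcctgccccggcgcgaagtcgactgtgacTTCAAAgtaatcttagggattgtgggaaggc
PRC1, chr15:90994536-90994785, minus strand: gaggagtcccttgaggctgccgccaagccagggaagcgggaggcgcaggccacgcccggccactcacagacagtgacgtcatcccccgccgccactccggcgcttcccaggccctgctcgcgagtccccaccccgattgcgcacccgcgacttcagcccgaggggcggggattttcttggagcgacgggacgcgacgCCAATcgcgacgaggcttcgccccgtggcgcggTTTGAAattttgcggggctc
INCENP, chr11:62123761-62124010, plus strand: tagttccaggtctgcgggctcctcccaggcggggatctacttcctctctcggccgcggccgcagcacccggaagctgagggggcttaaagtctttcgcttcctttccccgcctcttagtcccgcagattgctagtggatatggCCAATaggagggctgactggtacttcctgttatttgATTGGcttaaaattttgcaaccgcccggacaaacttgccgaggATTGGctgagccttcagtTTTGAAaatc
CDC20 holds 2 of each motif, ZWINT 2 and 1, PRC1 1 of each, and INCENP 3 and 1. PRC1, which bundles the microtubules of the central spindle, stood at 8.73 with GW8510 against 5.32. INCENP, the scaffold of the chromosomal passenger complex, stood at 5.32 against 3.84, and both genes rose in the re-test.

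Genes of DNA replication were listed in 1 direction only, and at low signals. All 10 listed of 54 were higher, where 38.8% of all listed genes were higher. The groups did not overlap in 8 of the 10, a smaller share than the 90.6% of the whole table. Of 9 re-tested genes 7 rose, while 95.4% of all re-tested genes passed. ASF1B, a histone chaperone of replicating chromatin, rose from 1.47 to 4.66. FEN1, the nuclease that trims Okazaki fragments, rose from 10.6 to 15.5, and the origin licensing factor CDC6 from 1.29 to 2.56. CDT1 and CHTF18 were listed but did not pass, with means of 3.30 against 2.94 and 3.04 against 2.54. PCLAF, a partner of the replication clamp, read 15.45, 10.19 and 14.90 against 3.24, 3.8 and 4.18, a 3.61-fold rise. PKMYT1, a kinase that restrains mitotic entry, rose from 1.96 ± 0.517 to 6.45 ± 1.90. Both ratios were among the 8 largest of non-overlapping genes with a symbol and a higher group mean of at least 5. The listed replication genes had a median span of 17.2 kb and a GC content of 50.3%.

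Nucleotide synthesis genes were listed for 8 of 31, 5 higher and 3 lower, and all 8 passed the re-test. The alternative small subunits of ribonucleotide reductase went in opposite directions. RRM2, the S-phase small subunit of ribonucleotide reductase, read 19.55, 16.63 and 21.21 against 7.92, 5.95 and 7.0, a 2.75-fold rise. RRM2B, the p53-induced alternative to that subunit, read 22.14, 20.95 and 17.58 against 39.53, 35.73 and 31.29, a 1.76-fold fall. RRM1, the large subunit that both share, fell from 20.2 to 12.2, and the purine enzyme gene ADSS2 from 34.2 to 19.9. TK1, thymidine kinase, rose from 8.70 ± 0.835 to 23.9 ± 1.71. CAD and IMPDH1, which make pyrimidines and guanine nucleotides, rose from 14.1 to 20.1 and from 83.7 to 124. Among recombination genes 9 of 40 were listed, 5 higher and 4 lower. NBN and ATM, sensors of double-strand breaks, fell from 8.50 to 4.24 and from 8.54 to 5.72. CHEK1, the checkpoint kinase of replication stress, rose from 4.80 ± 0.510 to 6.43 ± 0.505 (limma adjusted p 0.023), a call that was lost without GW8510 replicate 1, GW8510 replicate 3 or control replicate 2, with adjusted p from 0.0580 to 0.103.

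The genes for cyclins and CDKs, the family GW8510 is known to inhibit, were listed for 12 of 62, with 9 higher and 3 lower. CCNB1, the mitotic cyclin B1, rose from 14.8 ± 1.78 to 22.1 ± 0.870 and CCNB2 from 4.95 to 7.4. CCND3, a D-type cyclin, rose from 149 to 220. CDKN2C and CDKN2D, inhibitors of the D-cyclin kinases, rose from 2.03 to 3.51 and from 10.9 to 14.4. Of the kinases themselves, 4 were listed. CDK15 read 4.48, 5.07 and 5.10 against 17.33, 11.14 and 12.70, a 2.81-fold fall without overlap. CDK19, a Mediator kinase, fell from 4.62 ± 1.10 to 2.23 ± 0.254. CDK9, the kinase that releases paused polymerase, read 49.30, 42.13 and 53.02 against 42.18, 34.22 and 37.59. Its groups overlap by a hair between GW8510 2 and control 1, and its 1.27-fold rise (limma adjusted p 0.019) was lost without GW8510 replicate 1, GW8510 replicate 3 or control replicate 2, at adjusted p 0.0529 to 0.0865. CDK20 stood at 4.05 ± 0.230 against 3.13 ± 0.467 and did not pass (limma adjusted p 0.061), although control replicate 3 left out took it to 0.022. CDKN1A and CDKN2A, the genes of p21 and p16, were not in the table. Of 36 p53 targets the table holds RRM2B and PMAIP1, the NOXA gene of mitochondrial apoptosis, and both fell.

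**Figure D3:**
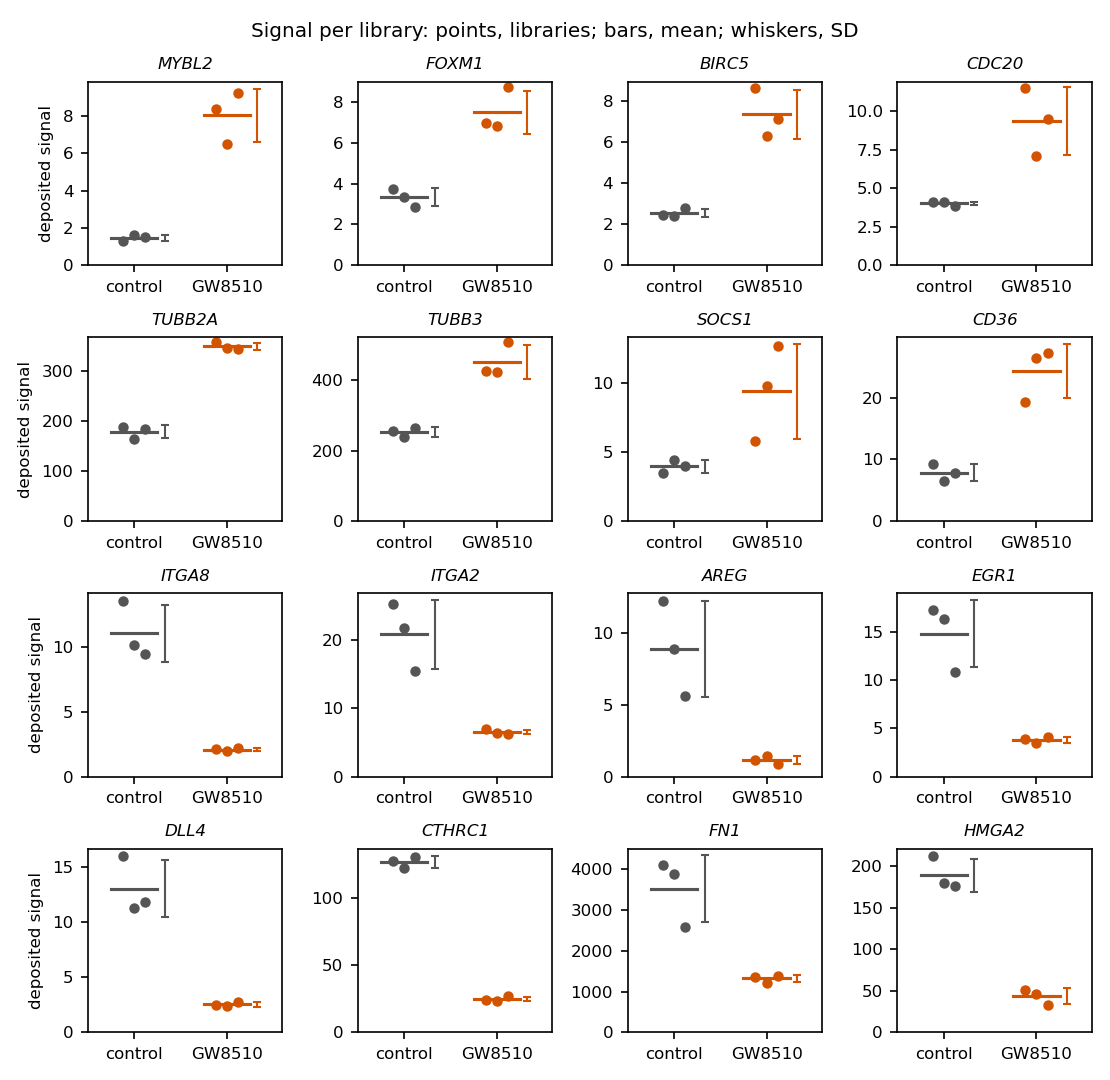
Deposited signal (vertical, from 0) of 16 genes in each PD45 control and GW8510 library; points are libraries, bars are means over 3 libraries and whiskers are SD. The groups are apart in every panel, with MYBL2, FOXM1, BIRC5 and CDC20 above the control and ITGA8, AREG, EGR1 and CTHRC1 below it.

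The PD30 table shares 606 of the genes listed for GW8510, and it shares the PD45 control libraries, so only levels are given. MYBL2, FOXM1, BIRC5 and CDC20 had GW8510 levels between those of the PD45 control and PD30. MYBL2 stood at 1.47 in the PD45 control, 8.03 with GW8510 and 12.7 ± 2.40 at PD30. FOXM1 stood at 3.33, 7.52 and 25.2, BIRC5 at 2.55, 7.33 and 39.7, and CDC20 at 4.0, 9.35 and 53.3. UBE2S was nearly level with PD30, at 71.6, 129 ± 18.5 and 141 ± 18.6. SMC4 and CKAP2 lay on the far side, at 4.82, 2.19 and 13.0 and at 8.29, 5.42 and 17.8. Outside the cell cycle the order varied by gene. ITGA8 stood at 11, 2.08 and 2.34 and IGFBP2 at 17.4, 7.15 and 7.96, while CTHRC1 stood at 127, 24.9 and 275 and CD36 at 7.83, 24.3 and 0.90.

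**Figure D4:**
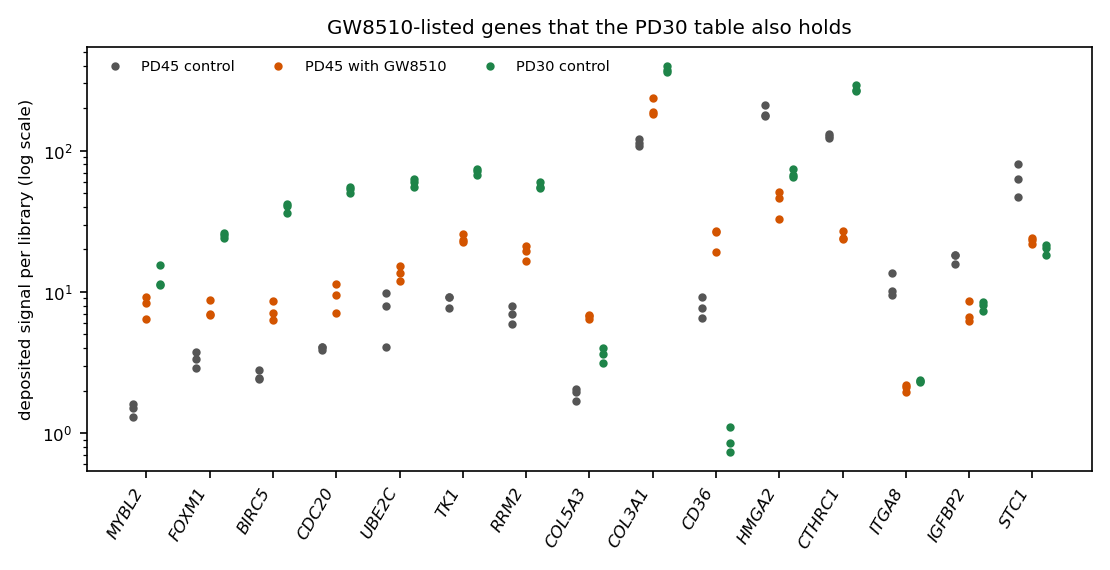
Deposited signal per library (log scale) of 15 GW8510-listed genes that the PD30 table also holds, in the PD45 control, in PD45 cells with GW8510 and in the PD30 control; each point is 1 library. GW8510 points of MYBL2, CDC20 and RRM2 lie between the other groups, those of ITGA8 and IGFBP2 lie near PD30, and those of CTHRC1 and CD36 lie on the far side of the PD45 control from PD30.

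Secreted proteins of the SASP were mostly listed as lower. Among 35 cytokines and chemokines 9 were listed, 8 lower and 1 higher, with a median log2 ratio of -1.72. The groups did not overlap in any of the 9, beside 90.6% of the whole table without overlap. However, 4 were below the signal minimum of the re-test, in which 4 fell and 1 rose. TNFRSF11B, the osteoprotegerin decoy receptor, read 49.41, 40.17 and 51.78 against 145.24, 122.96 and 126.83, a 2.79-fold fall. IL11, a fibroblast cytokine of the IL-6 family, fell from 13.7 ± 2.03 to 5.99 ± 0.629 and TSLP from 5.41 to 2.97. CXCL12, the ligand of CXCR4, fell from 3.16 to 0.93. CXCL8, the neutrophil chemokine IL-8, was under the re-test minimum at 0.42 against 1.48. IL15, a lymphocyte growth factor, rose from 1.82 to 2.72. IL6 and IL1B were not in the table. The median span of these genes was 7.96 kb and their GC content 42.5%.

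Growth factors and their binding proteins followed the same majority, with 10 of 12 listed genes lower and 24 of the 36 not in the table. The listed genes had a median span of 35.1 kb and a GC content of 42.5%. STC1, the secreted glycoprotein stanniocalcin, read 24.26, 23.25 and 21.96 against 80.58, 62.90 and 47.03, and fell 2.74-fold. IGFBP2 fell from 17.4 ± 1.33 to 7.15 ± 1.31 and ANGPTL4 from 81.8 ± 11.9 to 41.0 ± 8.02. GREM1, a BMP antagonist, fell from 480 ± 63.1 to 282 ± 29.4 and INHBA, an activin subunit, from 14.2 to 8.07. IGFBP3, which binds insulin-like growth factors and is a common marker of senescent fibroblasts, rose from 47.8 to 76.9.

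In the list of matrix proteases and their inhibitors 8 of 10 listed genes were lower, and all 8 fell. MMP1, interstitial collagenase, had 4.88, 3.54 and 3.33 against 32.82, 21.58 and 16.98, a 6.07-fold fall (log2 difference -2.30, SE 0.22, limma adjusted p 2.7e-05). The groups are far apart, although the control libraries themselves vary. PLAU and PLAT, the urokinase and tissue plasminogen activators, fell from 420 ± 36.9 to 187 ± 5.03 and from 134 ± 3.50 to 57.4 ± 10.7. Cathepsin K, from CTSK, fell from 39.5 to 19.7. ADAMTS8 and ADAMTS15, secreted metalloproteases, rose from 23.8 to 34.7 and from 2.12 to 3.15.

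From the list of EGF receptors and their ligands 2 of 19 genes were listed, both lower, in a table where 61.2% of genes were lower. Early targets of growth factor signalling were listed in both directions. AREG, the EGF receptor ligand amphiregulin, read 1.16, 1.47 and 0.91 against 12.24, 8.88 and 5.59, a 7.55-fold fall (log2 difference -2.13, SE 0.23, limma adjusted p 5.5e-05). Its sister ligand EREG fell from 4.63 to 2.03. Of 44 immediate-early genes, which growth factors induce without new protein synthesis, 13 were listed, 6 higher and 7 lower. The share that was higher was 46.2%, beside 38.8% of all listed genes. In the re-test 6 rose and 5 fell, and 2 were below the signal minimum. EGR1, a zinc finger factor of that class, read 3.88, 3.51 and 4.12 against 17.24, 16.38 and 10.84, a 3.86-fold fall. NAB2, the EGR1 corepressor, fell from 33.3 to 18.6, and ID1 and ID2, inhibitors of differentiation factors, from 92.7 to 53 and from 95.1 to 59.3. KLF2, a Krüppel-like factor that statins and shear stress induce in endothelium, read 22.61, 12.44 and 21.93 against 6.58, 9.24 and 3.68 and rose 2.92-fold. RHOB and the stress factor ATF3 rose from 95.0 to 165 and from 27.3 to 44.9.

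CArG boxes, the sites of serum response factor, mark many immediate-early promoters. Within 250 bases before the start they were found in 1.18% of all promoters, in 1 of 6 lower and none of 6 higher immediate-early genes, and in 2 of 21 that were not listed. The lower gene was EGR1, whose sequence is shown 5′ to 3′ with its CArG boxes alone in capitals.
EGR1, chr5:138465229-138465478, GRCh38.p14, plus strand: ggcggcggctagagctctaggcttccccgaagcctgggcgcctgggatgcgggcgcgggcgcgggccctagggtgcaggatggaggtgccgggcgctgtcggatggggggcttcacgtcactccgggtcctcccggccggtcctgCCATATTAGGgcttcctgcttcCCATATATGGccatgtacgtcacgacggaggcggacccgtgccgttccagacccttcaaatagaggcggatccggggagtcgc
The window holds 2 CArG boxes, both in the part nearer to the start site.

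Feedback genes of the ERK pathway were listed for 11 of 35, 4 higher and 7 lower, in a table where 61.2% of genes were lower. In the re-test 7 fell and 3 rose. DUSP6, the ERK phosphatase, read 21.56, 21.01 and 22.48 against 46.14, 38.08 and 38.19. ETV1 and ETV4, ETS factors that ERK signalling induces, fell from 11.1 to 5.30 and from 11.1 to 6.17, and the pathway inhibitors SPRY2 and SPRY4 from 25.4 to 15.2 and from 18.7 to 10.8. DUSP1 and DUSP5, also phosphatases of this pathway family, rose from 104 to 164 and from 34.3 to 56.1. SPRY1 was listed at 4.56 against 3.94, and its libraries overlap and it did not pass.

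The kinase families named in the aims of the study were sparsely listed. None of 17 SRC family kinase genes was in the table, SRC among them. Of 36 genes in the list of PAK kinases and their partners 4 were listed and none was a PAK: RHOB, the CDC42 effector CDC42EP2 and the cofilin kinase gene LIMK2 rose, and ROCK2 fell from 10.4 to 5.98. JAK-STAT genes numbered 8 of 42, with 5 rising and 3 falling. SOCS1 and SOCS3, feedback inhibitors that STATs induce, rose from 3.95 ± 0.480 to 9.40 ± 3.44 and from 13.7 ± 1.06 to 27.0 ± 3.70. PIM1, a kinase gene that STATs induce, rose 2.06-fold. IL6ST, the receptor chain shared by IL-6 cytokines, fell from 68.1 ± 8.70 to 36.7 ± 1.01. JAK2 read 0.95, 0.93 and 0.95 against 1.90, 1.84 and 1.41 (limma adjusted p 0.0052). Receptor tyrosine kinases were listed for 5 of 42, and among them FGFR4 rose from 4.31 to 8.12 and FLT1, a VEGF receptor, fell from 6.35 to 3.17.

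Within phosphoinositide and nutrient signalling, 9 of 56 genes were listed, 3 higher and 6 lower, in a table where 61.2% of genes were lower. Their median span was 72.1 kb and their GC content 40.0%. PIK3R2, a regulatory subunit of PI3-kinase, had the largest upward ratio among non-overlapping genes with a symbol and a higher mean of at least 5, and its libraries vary widely. It read 10.64, 28.25 and 45.32 against 5.76, 2.28 and 2.11, an 8.30-fold ratio of means (limma adjusted p 0.00047). The catalytic subunit gene PIK3CA fell from 7.81 to 4.42 and PIK3C3, the autophagy kinase VPS34, from 18.3 to 9.13. TXNIP, a glucose-responsive inhibitor of glucose uptake, fell from 102 to 58.3. IRS2, an adaptor of the insulin receptor, rose from 7.12 to 12.4.

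Pathways of cell-cell signals were listed in both directions. In the TGF-beta and BMP list 12 of 55 were listed, and 5 rose and 6 fell. NOG, BAMBI and FSTL3, which block BMP or activin signals, rose from 4.26 to 9.52, from 8.56 to 17.0 and from 92.6 to 172. GREM1, another BMP antagonist, and the receptor-degrading ligase gene SMURF2 fell, the latter from 150 to 84.9. In the Notch and Hedgehog list 6 of 8 listed genes fell, in a table where 61.2% of genes were lower. The listed genes of this list had a median span of 172 kb and a GC content of 48.7%. DLL4, a Notch ligand best known from vessel sprouting, read 2.48, 2.36 and 2.75 against 15.95, 11.28 and 11.80, a 5.14-fold fall. RBPJ, the DNA-binding factor of Notch signalling, fell from 57.8 to 32.2. WNT genes were even, 4 higher and 4 lower of 58, and WLS, which carries WNT proteins to the surface, fell from 212 ± 13.1 to 108 ± 5.42. TEAD4, a DNA partner of YAP, rose from 14.0 to 28.1, and SAV1, a scaffold of the Hippo kinases, fell from 25.3 to 15.7.

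The 9 listed collagens of 41 comprise 2 that rose and 7 listed lower, of which 5 fell, in a table where 61.2% of genes were lower. Their median span was 50.9 kb and their GC content 59.0%. COL5A3, a fibrillar collagen V chain, read 6.71, 6.45 and 6.87 against 1.96, 2.04 and 1.68, a 3.53-fold rise (limma adjusted p 2.3e-05), and collagen III, from COL3A1, rose from 115 ± 6.82 to 202 ± 29.7. COL10A1 read 1.80, 1.86 and 1.71 against 11.94, 5.40 and 4.31, and its control libraries spread 2.77-fold. COL13A1 and COL18A1 fell from 35.3 to 17.1 and from 101 to 55.3. COL1A1 and COL1A2 were not in the table.

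Of 68 matrix glycoproteins and proteoglycans 12 were listed, 6 in each direction. FN1, fibronectin, read 1369.06, 1216.65 and 1389.93 against 4108.88, 3891.78 and 2588.60, a 2.66-fold fall and one of the 5 largest losses of signal in the table. Tenascin C, from TNC, read 11.70, 11.89 and 13.09 against 39.88, 39.98 and 36.87, and POSTN, periostin, fell from 5.46 to 1.63. NID2, a basement membrane nidogen, rose from 168 ± 22.9 to 338 ± 38.2, and elastin, from ELN, from 0.60 to 2.79. CTHRC1, a secreted protein of activated fibroblasts, had the lowest limma adjusted p of the named genes, 2.0e-07. It read 24.14, 23.67 and 26.82 against 127.71, 122.30 and 130.75, a 5.10-fold fall.

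Integrins, the receptors through which fibroblasts hold fibronectin and collagen, were listed as lower without exception, in 6 of 27. The groups did not overlap in any of the 6, beside 90.6% of the whole table without overlap. In the re-test 5 fell, while ITGA10 was under its minimum. ITGA8, the alpha subunit of a fibronectin and nephronectin receptor, read 2.12, 1.94 and 2.19 against 13.54, 10.12 and 9.45, a 5.30-fold fall (log2 difference -1.95, SE 0.15, limma adjusted p 1.4e-05). ITGA2, of the collagen receptor, read 6.95, 6.45 and 6.28 against 25.36, 21.85 and 15.41. ITGB3 fell from 14.9 to 6.18, ITGB5 from 168 to 100 and ITGA11 from 33.1 to 21.3. These genes are long, with a median span of 121 kb, and had a GC content of 51.0%.

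Tubulins showed the opposite uniformity. All 6 listed of 27 were higher, free of overlap like 90.6% of the whole table, and rose. TUBB2A read 358.32, 345.61 and 345.27 against 188.05, 164.05 and 183.79, a 1.96-fold rise, and TUBB2B rose from 71.4 to 139. TUBB3, the beta tubulin typical of neurons, rose from 253 ± 13.4 to 453 ± 48.5. TUBA1A, TUBA1B and TUBA1C rose 1.54-fold, 1.48-fold and 1.36-fold. The near-identical sequences of these genes make each value uncertain, since reads can be split between copies. They are short genes, with a median span of 6.0 kb, and had a GC content of 55.8%. Contractile genes were mixed: SYNPO and TAGLN2 rose from 28.3 to 50.2 and from 450 to 703, and CALD1, caldesmon, and LMOD1 fell from 368 to 204 and from 48.8 to 28.6.

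Lipid genes included a run of cholesterol enzymes that were higher. Of 33 cholesterol genes 8 were listed, and 6 rose and 2 fell. SREBF1, a master regulator of lipid synthesis genes, rose from 16.0 to 25.9, and the mevalonate enzymes MVD and MVK rose from 84.4 to 124 and from 14.7 to 22.1. TM7SF2, a sterol reductase, fell from 18.1 to 9.32. Fatty acid genes were listed for 8 of 44, 3 higher and 5 lower, and 3 rose and 4 fell. FASN, fatty acid synthase, rose from 40.6 ± 6.41 to 91.4 ± 14.1 and SCD, the desaturase, from 45.1 to 73.4. CD36, a fatty acid transporter, read 19.32, 26.45 and 27.24 against 9.24, 6.51 and 7.73, a 3.11-fold rise, whereas FABP4, a fatty acid binding protein, fell from 90.6 to 39.0. CPT1B, which brings fatty acids into mitochondria, and ACSL5, which activates them, fell from 3.82 to 1.09 and from 2.92 to 1.47. FABP3 fell with overlapping libraries, from 22.6 to 14.1. The cholesterol genes had a median span of 25.7 kb and a GC content of 58.3%.

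Stress, hypoxia and interferon genes were listed in both directions. All 4 listed genes of the amino acid and ER stress response fell, out of 48, with CHAC1, which breaks down glutathione, from 88.4 ± 8.03 to 33.8 ± 3.70 and ASNS, asparagine synthetase, from 14.4 to 6.43. HSP90AA1, the inducible cytosolic HSP90, read 244.07, 179.26 and 220.31 against 555.95, 520.34 and 484.58, a 2.43-fold fall. The heat shock list was even, with 2 of its 4 listed genes rising: HSPA2, a chaperone of the HSP70 family, from 9.33 to 17.4 and CRYAB, a small heat shock protein, from 17.8 to 25.5. Hypoxia and glycolysis genes were listed for 8 of 48, with 2 rising and 6 falling, in a table where 61.2% of genes were lower. HIF1A, the hypoxia factor, fell from 93.7 ± 17.0 to 41.8 ± 4.50, and CA12 and PDK4 fell with it, while the vasodilator gene ADM rose from 149 to 277. Among interferon-stimulated genes 9 of 56 were listed, 2 higher and 7 lower, and IFI16 and GBP3 fell from 36.2 to 16.7 and from 59.9 to 30.0 while IFIT1 rose from 3.96 to 10.0. B2M, the light chain of MHC class I, fell from 3647 to 2121. HMGA2, a chromatin protein of fetal and senescent cells, read 51.31, 45.98 and 32.77 against 211.73, 179.67 and 175.45, a 4.36-fold fall, and LMNB1, lamin B1, which is known to drop in senescence, rose from 1.85 to 2.62.

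Large gene families varied in their direction. Zinc finger genes of the ZNF name were listed for 38 of 509, with 9 higher and 29 lower, and ion channels for 26 of 180, with 5 higher and 21 lower. The ZNF genes had a median span of 26.5 kb and a GC content of 39.8%, the ion channels 107 kb and 47.9%. TRPA1, an irritant-gated channel, read 4.36, 4.15 and 7.94 against 17.23, 14.90 and 21.04. Chromatin modifying enzymes were listed for 8 of 83, with 7 lower, among them JMJD1C and CHD9. Their median span was 154 kb and their GC content 42.8%. Of 48 splicing regulators 4 were listed and all fell, including MBNL2 and CLK1, with a GC content of 36.2%. Of 53 ubiquitin-specific proteases 6 were listed and all fell, with a GC content of 39.3%. In this order the listed shares were 9.64%, 8.33% and 11.3%, counting members whether or not they were tested. Over all tested genes 11.8% were listed, and 61.2% of the table was lower. Solute carriers were nearly even, 16 higher and 14 lower of 371. SLC20A1, a phosphate importer, fell from 61.0 to 25.4 and SLC38A5, a glutamine transporter, rose from 18.8 to 37.2. RAB13, a GTPase of membrane traffic, fell from 278 ± 17.1 to 137 ± 5.55. None of 82 cytosolic ribosomal protein genes and none of 15 mitochondrially encoded genes was in the table.

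**Figure D5:**
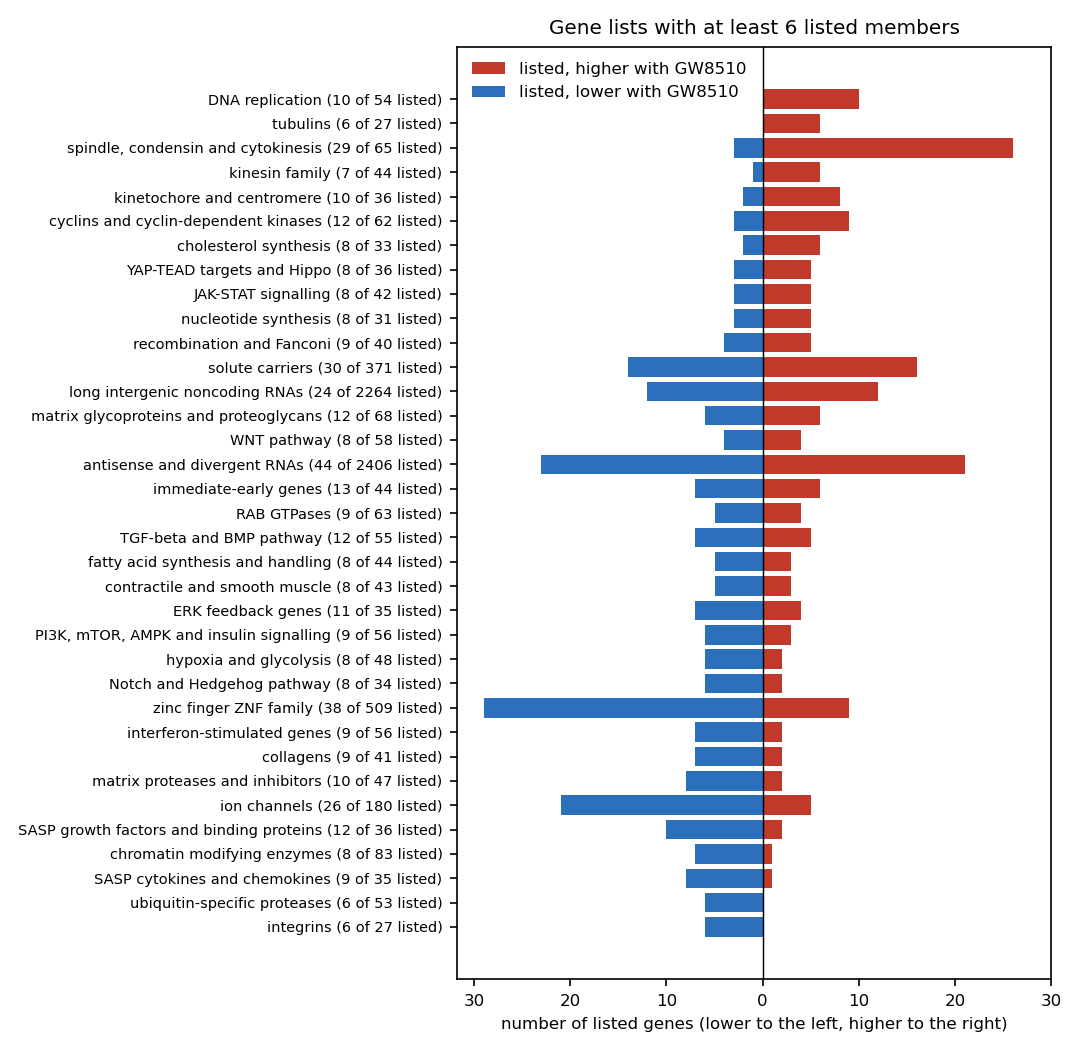
Number of listed genes that were lower (left) and higher (right) with GW8510 in each gene list with at least 6 listed members, ordered by the share that was higher. DNA replication and tubulins are wholly to the right, integrins and ubiquitin-specific proteases wholly to the left, and 61.2% of the whole table was lower.

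Noncoding RNAs were listed in both directions. The totals below count every annotated symbol of the name pattern, tested or not. The listed shares therefore cannot be set beside the 11.8% of tested genes. Long intergenic RNAs of the LINC name had 24 of 2264 in the table, 12 higher and 12 lower, and antisense or divergent RNAs 44 of 2406, 21 higher and 23 lower, beside 38.8% higher over the whole table. BOK-AS1 read 7.44, 2.40 and 5.74 against 0.91, 1.68 and 0.86, and FOXD1-AS1 3.46, 3.0 and 0.39 against 7.57, 10.79 and 10.10. The sources used here do not state whether counting used the strand, so the reads of an antisense gene and its partner cannot be told apart. RIPOR3 and RIPOR3-AS1 fell together, from 8.47 to 1.77 and from 11.4 to 4.33.

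The remaining genes at the ends of the table belong to none of these groups. RGS4, a regulator that switches off G protein signals, read 8.15, 11.11 and 7.86 against 64.58, 51.49 and 36.34, a 5.62-fold fall. VAT1L fell 5.06-fold, from 15.5 ± 3.27 to 3.06 ± 0.462. By difference in signal, MT2A, a metal-binding metallothionein, lost the most of any listed gene, with 2240.56, 2035.40 and 1865.72 against 5394.63, 4540.15 and 4431.46. S100A13 fell from 561 ± 6.72 to 311 ± 14.2. The largest gains outside the tubulins were S100A10, the partner of annexin A2 at the membrane, from 361 ± 17.5 to 828 ± 70.3, CAVIN1, a coat protein of caveolae, from 819 ± 26.1 to 1189 ± 20.1, and the carboxypeptidase gene CPA4, from 480 ± 62.2 to 831 ± 52.4. None of these genes had overlapping groups, and all of them passed in limma.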

How the data were processed

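The authors deposited a table per comparison with a normalised expression signal per gene and library, whose unit is not named in the file headers, beside a fold ratio, a log2 fold change, a p-value and an adjusted p-value. Per the submitters' processing notes, CASAVA, HISAT2, StringTie, RSEM, DESeq2 and edgeR were used, without versions or roles, and the build is named GRCm38, a mouse assembly, although the identifiers are human. Libraries were grouped by title and treatment label.

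From the deposited signals, means, SD and ratios were computed with Python 3.11.15 and pandas 2.3.3. Listed genes were re-tested with limma 3.58.1 (R 4.3.3, with trend) on log2(signal + 1) for a mean signal of at least 1, with Benjamini-Hochberg adjustment over the 1625 genes; this scale understates the change of low genes. The step was tested on simulated data. Span and GC content come from GENCODE release 29 (99.0% of genes matched) and promoters from RefSeq (1353 listed genes matched).

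The 47 gene lists (1679 distinct symbols, 3 without a current gene) and 17 families defined by name pattern were chosen with earlier results of these data known. Named genes are, per list, up to 4 non-overlapping members with the largest ratio and a higher mean of at least 5, the 8 largest ratios and 5 largest differences in each direction, and listed SRC, PAK, JAK and CDK genes. Other named genes were chosen after their values were seen. Same-numbered libraries are not treated as pairs. Alternatives were another pseudocount, filter, trend, scaling and block, and leaving out each library. Some items are not reported here.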

Additional observations from a re-analysis of the deposited data

How the results depend on the processing

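Under the alternatives run, the limma re-test called 563 to 663 genes higher, against 616, and 861 to 1062 lower, against 935, except with a mean signal of at least 5, which tests 1006 genes and calls 432 higher and 553 lower. Leaving out each library gave 563 to 597 higher and 861 to 925 lower. Genes without overlap numbered 644 higher and 1027 lower, 673 and 987 with GW8510 signals rescaled to the authors' folds, and 657 to 673 and 1034 to 1081 with a library left out. A replicate block gave 615 higher and 937 lower, but deviations of same-numbered libraries correlated at 0.107, 0.024 and 0.040, so the numbers do not show pairing. Of 199 genes named by rule 198 passed, none reversed, and 3 lost the call in some fit: CHEK1, CDK9 and, without control replicate 3, BHLHE40 (limma adjusted p 0.0514). Most of these genes were picked for large ratios without overlap in this same contrast. That nearly all passed and none reversed is therefore no support for the calls. CDK20 passed without the trend (limma adjusted p 0.0393), after rescaling (0.0205) and without control replicate 3 (0.0218). In 37 lists with at least 5 listed members, no count moved by over 1.5 times in 296 comparisons, which include leaving out each library, added after the data were seen. These counts take only the direction of genes already selected for a fold of 1.5 in this contrast. They could hardly move, so their stability is no support for the list results. The cause of the shifts in the calls was not tested. Depth is unknown, so 220 genes under the signal minimum have values and no re-test.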

Other observations

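Some listed families were noticed only after their values were seen. Metallothioneins, small proteins that bind zinc and copper, were lower beyond MT2A: MT1X stood at 35.5 ± 1.15 with GW8510 and 72.7 ± 6.18 in the control, MT1E at 136 ± 14.3 and 243 ± 20.2, and MT1L at 29.5 ± 5.33 and 59.2 ± 14.1. Their sequences are alike, so reads may be split between them. Keratins moved in both directions, with KRT34 at 9.26 and 4.81 and KRT17 at 3.60 and 9.81. RGS5, a relative of RGS4 known from pericytes, stood at 3.32 and 9.80. GPRC5A, a retinoid-induced receptor, read 108.88, 102.90 and 112.74 against 36.03, 42.39 and 40.49, and NPTX1, a neuronal pentraxin, 12.49, 12.67 and 12.26 against 53.98, 59.70 and 49.16.

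Replicates differed widely within a group in some genes. ENSG00000280852 read 0.07, 0.05 and 1.15 with GW8510 and 10.88, 5.02 and 7.08 in the control, and ENSG00000272540 read 25.98, 9.94 and 65.60 against 7.82, 1.56 and 5.01. CEBPD, a C/EBP factor of acute inflammation, read 89.50, 152.15 and 181.44 against 57.59, 62.03 and 57.48.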
